A study of Mus musculus with 16 samples.

Results

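The regions described here are the sites on mouse chromosome 9 that a pair of promoters on other chromosomes contacted in 4C-seq, a method that ligates crosslinked chromatin and sequences whatever was joined to 1 chosen locus, the viewpoint. A site is a HindIII restriction site that the authors listed for a library, and a site on any chromosome other than the viewpoint's own is a trans site. Every listed site with chromosome 9 in its first column was taken, at any position of the mm9 build, so the members were selected on the authors' own call of a site, a deposited value of at most 0.05. This gave 12282 listings of 6752 distinct sites, out of 327988 listings of 139505 distinct sites on all chromosomes and 208518 trans listings. A stretch of 22 Mb, from 52 to 74 Mb, was chosen by where the called regions of many libraries had joined, so the density of sites in it and on chromosome 9 is given as a description without a test.

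The cells were mouse embryonic fibroblasts (MEFs), primary cultures grown from E13.5 embryos and harvested while proliferating at passage 4. Fixation was in 1% formaldehyde. The first viewpoint was the bidirectional promoter on chromosome 5 that serves Pole, which encodes the large subunit of a replicative DNA polymerase, and Pxmp2, which encodes a protein of the peroxisome membrane. The second was the bidirectional promoter on chromosome 6 that serves Cdca3, needed for entry into mitosis, and Usp5, which takes ubiquitin chains apart. Each viewpoint had 4 libraries from Rb1+/+ cells and 4 from Rb1L/L cells, in 4 numbered pairs of cultures. Since the same pair identifiers appear for either promoter, 8 cultures were taken as the source of the 16 libraries. The labels do not say what the members of a pair share, and with no statement that a pair is a separate litter the p-values measure the spread between these cultures only. Rb1 encodes pRb, which restrains entry into the cell cycle. As background, the L allele changes the pocket of pRb that binds proteins carrying an LXCXE motif. The series title concerns the recruitment of condensin II, a complex that compacts chromosomes, by pRb to promoters, so the genotype comparison asks whether the contacts of such promoters differ in Rb1L/L cells.

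Chromosomes occupy separate territories in the interphase nucleus, and contacts between them are rarer than contacts within one. Active, gene-rich chromatin tends to meet other active chromatin and silent chromatin other silent chromatin, so that a trans profile is usually made of blocks several megabases long that many loci share. A trans list from 4C-seq is therefore read by regions more than by single restriction sites. No gene is placed in any window below, because no mm9 annotation was used.

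Read counts are not part of the lists. The sequencing depth is therefore unknown, and the number of trans sites is the only measure of yield. Pole libraries listed 2616 to 8899 trans sites and Cdca3 libraries 10537 to 30028, so the ranges of the viewpoints do not overlap. Chromosome 9 held 121 to 560 sites in a Pole library, with a median of 408.5, and 421 to 1913 in a Cdca3 library, with a median of 1169.5. Below, levels are given as sites per 1000 trans sites of the same library. This removes the difference in list length but not the coarser counting of a short list: a site in the smallest Pole library weighs far more than a site in the largest Cdca3 library. Every listed site lay inside a called region of its own library, but a called region can also cross windows without a listed site. Absence of contact cannot be read from an empty window.

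Chromosome 9 received about the same share of trans sites from both promoters and in both genotypes. At Pole the share was 3.81%, 6.53%, 5.83% and 6.42% in Rb1+/+ replicates 1 to 4, and 7.38%, 5.46%, 5.05% and 6.21% in the Rb1L/L replicates. At Cdca3 it was 5.38%, 5.94%, 6.44% and 5.45% in Rb1+/+ and 4.0%, 6.37%, 6.26% and 6.17% in Rb1L/L libraries. The groups overlap at both viewpoints, and the lowest value at each came from a replicate 1. The chromosome ranked 7 of 19 trans chromosomes by mean share at both viewpoints. Its mean share, 5.83% ± 1.08 at Pole and 5.75% ± 0.814 at Cdca3 (SD, n = 8 each), stood beside 5.04% and 5.03% of the combined length of the 19 chromosomes.

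**Figure D1:**
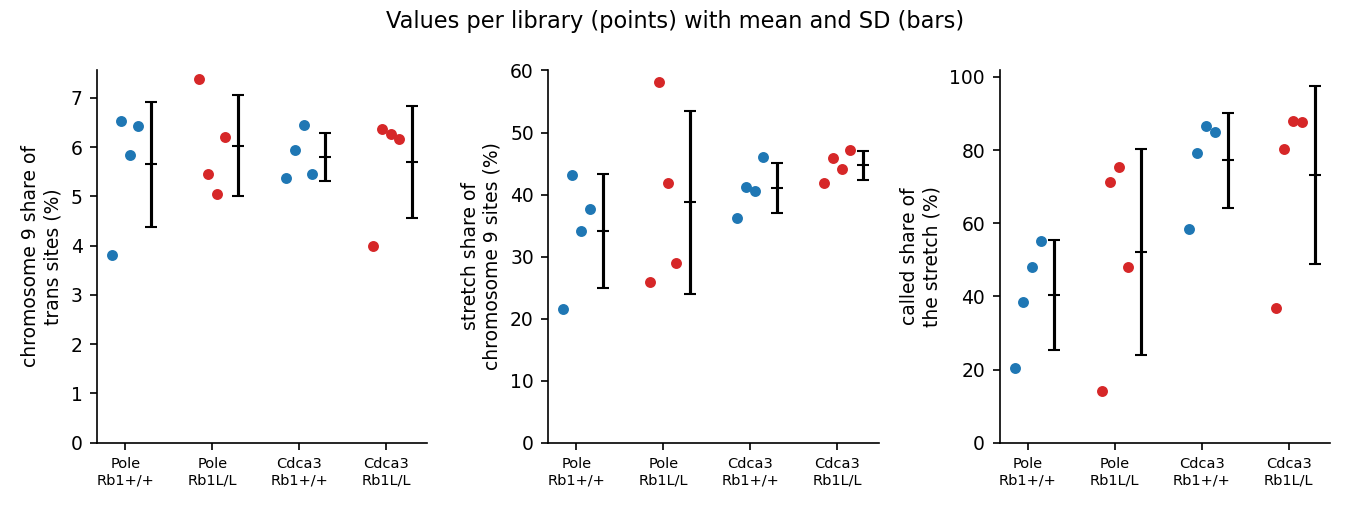
Values per library for the 4 groups: chromosome 9 share of trans sites, share of chromosome 9 sites inside the 22-Mb stretch, and share of the stretch covered by called regions, all in percent. Points are libraries in the order of their replicate numbers, and bars give the mean and SD of the 4 libraries. Every pair of genotype groups overlaps, and Cdca3 Rb1L/L replicate 1 lies below the other 3 libraries of its group at 4.0% in the left panel and at 36.9% in the right.

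Genotype did not shift the chromosome 9 share by more than the spread between libraries. At Pole, Rb1L/L minus Rb1+/+ was 0.379 percentage points (95% interval -1.48 to 3.57, exact two-sided permutation p = 0.686, adjusted p = 0.984 over 19 chromosomes), with a higher share in Rb1L/L in 1 of 4 pairs. At Cdca3 the difference was -0.102 points (95% interval -2.43 to 0.978, exact permutation p = 0.914, adjusted p = 0.971), with a higher share in Rb1L/L in 2 of 4 pairs. Both signs depended on single libraries: without Rb1+/+ replicate 1 or Rb1L/L replicate 1 the Pole difference was -0.234 or -0.0719, and without Rb1L/L replicate 1 or Rb1+/+ replicate 3 the Cdca3 difference was 0.466 or 0.109. Compared within cultures, the Pole share exceeded the Cdca3 share by 0.0841 points (exact sign-flip permutation p = 0.891, lower at Pole in 4 of 8 cultures). The genotype effect itself differed between viewpoints by 0.482 points (exact permutation p = 0.771), and this turned to -1.01 without pair 1.

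Along the chromosome, sites gathered in blocks separated by long empty runs, and most of these blocks held sites from both promoters. Outside the stretch there were 10 blocks when windows with a site in any library were joined over empty gaps of at most 1 Mb. The block from 99.5 to 100 Mb was the exception, with sites in 1 Pole library and no Cdca3 library. The 247 windows of 500 kb included 89 (36.0%) with sites at both viewpoints, 8 at Pole only, 17 at Cdca3 only and 133 (53.8%) with none. The other chromosomes that are trans to both viewpoints had sites at both in 31.7% of 4356 windows and none in 2353 of them. The longest empty run was the centromeric end, from 0 to 20 Mb. Next came 23 to 40.5 Mb, 87.5 to 94.5 Mb, 111.5 to 116 Mb and 73.5 to 77 Mb. These 5 runs were picked as windows without a site in any of the 16 libraries. That all libraries are empty there follows from this rule and is no measure of their agreement.

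**Figure D2:**
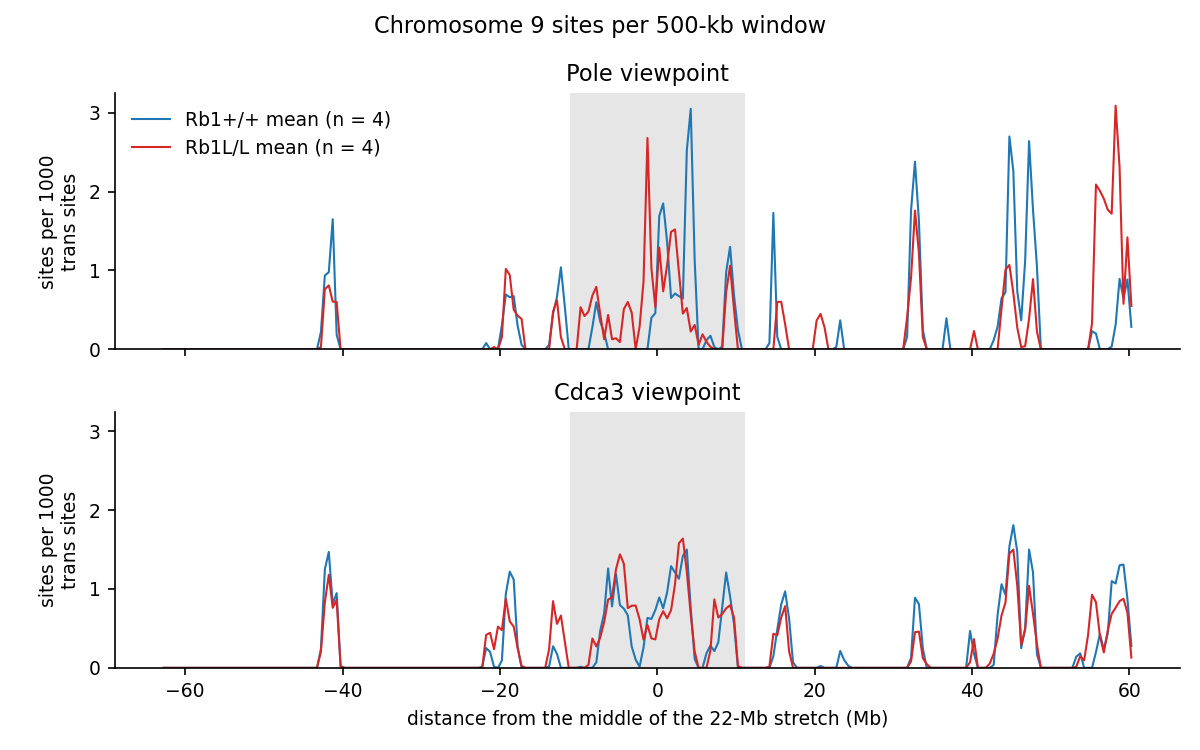
Listed sites per 500-kb window of chromosome 9, as sites per 1000 trans sites, against distance in Mb from the middle of the 22-Mb stretch (grey), for Pole above and Cdca3 below. Lines are means of the 4 Rb1+/+ and the 4 Rb1L/L libraries. The longest runs without a site in any library lie from 0 to 20 and 23 to 40.5 Mb on the chromosome. The genotype means are less alike at Pole (r = 0.425) than at Cdca3 (r = 0.866). Single libraries of the same genotype are also less alike at Pole (mean r = 0.307) than at Cdca3 (0.667).

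Outside the stretch, the blocks with the highest Cdca3 levels lay from 105 Mb onward. From 105.0 to 111.5 Mb Pole listed 9.79 ± 9.16 and Cdca3 10.0 ± 1.82 sites per 1000 trans sites (SD, n = 8 each). From 20 to 23 Mb, an isolated block between the 2 longest empty runs, the levels were 3.39 ± 2.45 and 4.30 ± 0.83, with sites in 7 of 8 and 8 of 8 libraries. From 40.5 to 46 Mb they were 3.11 ± 3.52 and 4.24 ± 0.889, with sites in 6 of 8 and 8 of 8 libraries. The terminal block from 116.0 to 123.5 Mb held 10.6 ± 15.3 and 7.53 ± 1.96. The large SD at Pole there comes from Rb1L/L replicate 1, the smallest library, which listed 47.4 sites per 1000 in that block while the other 7 libraries listed 0 to 9.55. Without it the Pole mean was 5.38 ± 3.88. The means of the viewpoints thus differ by less than the Pole SD in these blocks, but from 105 Mb onward the Pole means depend on single libraries. Pole libraries scatter far more than Cdca3 libraries. The block from 94.5 to 97.5 Mb, described below, had 5.31 at Pole and 1.62 at Cdca3.

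Neither promoter had its highest window in the same place as the other. For Pole the 5 highest were 95.5 to 96.0 Mb (2.07 ± 1.37 sites per 1000), 107.5 to 108.0 Mb (1.88 ± 1.52), 121.0 to 121.5 Mb (1.70 ± 2.84), 67.0 to 67.5 Mb (1.64 ± 1.69) and 121.5 to 122.0 Mb (1.60 ± 1.73). For Cdca3 they were 108.0 to 108.5 Mb (1.65 ± 0.378), 66.0 to 66.5 Mb (1.53 ± 0.559), 107.5 to 108.0 Mb (1.5 ± 0.388), 66.5 to 67.0 Mb (1.36 ± 0.353) and 65.5 to 66.0 Mb (1.35 ± 0.601; SD, n = 8 throughout). These neighbours in the order do not differ beyond their SDs. Among the 4603 windows trans to both viewpoints, the top chromosome 9 window ranked 42 for Pole and 6 for Cdca3. The window at 107.5 Mb is in both lists of 5, with sites in 7 of 8 Pole and 8 of 8 Cdca3 libraries.

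The 22-Mb stretch was denser than the mean of the rest of the chromosome, but not denser than every block outside it and not evenly filled. It held 36.4% ± 11.6 of a Pole library's chromosome 9 sites and 42.9% ± 3.65 of a Cdca3 library's (SD, n = 8 each). Per Mb, Pole listed 0.969 sites per 1000 trans sites in it and 0.365 in the rest of the chromosome. Cdca3 listed 1.12 and 0.323. The rest includes the long empty runs. Blocks outside the stretch were denser than it at both viewpoints from 20 to 23 Mb (1.13 and 1.43) and from 105.0 to 111.5 Mb (1.51 and 1.54). Those from 94.5 to 97.5 Mb (1.77 and 0.539) and from 116.0 to 123.5 Mb (1.42 and 1.0) were denser at Pole only. The remaining blocks were denser at neither. All these blocks were bounded by their sites, while the stretch includes empty edges. The mean over all windows trans to both was 0.406 per Mb at Pole and 0.403 at Cdca3. A stretch of like length on chromosome 4, from 122.0 to 142.5 Mb, was denser still, with 1.70 ± 0.912 at Pole and 1.5 ± 0.155 at Cdca3 per Mb. In that stretch 51.2% of windows held sites in at least 5 of 8 libraries at both viewpoints, against 22.7% of the 44 windows from 52 to 74 Mb.

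Its edges were empty. The windows just outside (51.5 to 52 and 74 to 74.5 Mb) and those just inside (52 to 53 and 73.5 to 74 Mb) had no site in any of the 16 libraries, and all sites lay between 53.0 and 73.5 Mb. The lowest windows inside were, beside these edges, 60 to 60.5 and 70.5 to 71.0 Mb for Pole, and 53.5 to 54 and 68.0 to 69.0 Mb for Cdca3, all without a site at that viewpoint.

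No library called the stretch as 1 region. Each Pole library had 1 to 4 called regions in it, covering 14.1% to 75.3% of its length with a median of 48.0%. Each Cdca3 library had 2 to 4, covering 36.9% to 87.9% with a median of 82.55%. The longest region inside was 2.29 to 7.17 Mb at Pole and 3.42 to 14.8 Mb at Cdca3, the last in Rb1L/L replicate 4 from 53659414 to 68477695. Taking any of the 8 libraries together, 98.2% of the stretch was called at Pole and 98.3% at Cdca3, yet no base of it was called in all 8 Pole libraries. In all 8 Cdca3 libraries 6.39 Mb was called, in 3 segments: chr9:56234945-59060102, chr9:64373744-67538901 and chr9:70082610-70484583. The 3 stretch segments called in 7 of 8 Pole libraries were short and lay in or near the second of these, at chr9:62816494-63209723, chr9:64575401-65109489 and chr9:66199675-66590429. How much of the stretch a Pole library called rose with its trans sites (Pearson r = 0.931, exact permutation p = 0.000744, adjusted p = 0.00446 over 6 relations; Spearman rho = 0.952, exact permutation p = 0.00114, adjusted p = 0.00685; r = 0.8 without the 2 libraries of most extreme yield). At Cdca3 r was 0.719 and rho 0.69 (exact permutation p = 0.0439 and 0.0694, adjusted p = 0.0878 and 0.138, with r = 0.952 without 2 libraries). Every listed site lay inside a called region of its own library, so both measures come from the same calls. A rise is therefore partly built in, and these p-values do not measure a relation to sequencing depth.

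**Figure D3:**
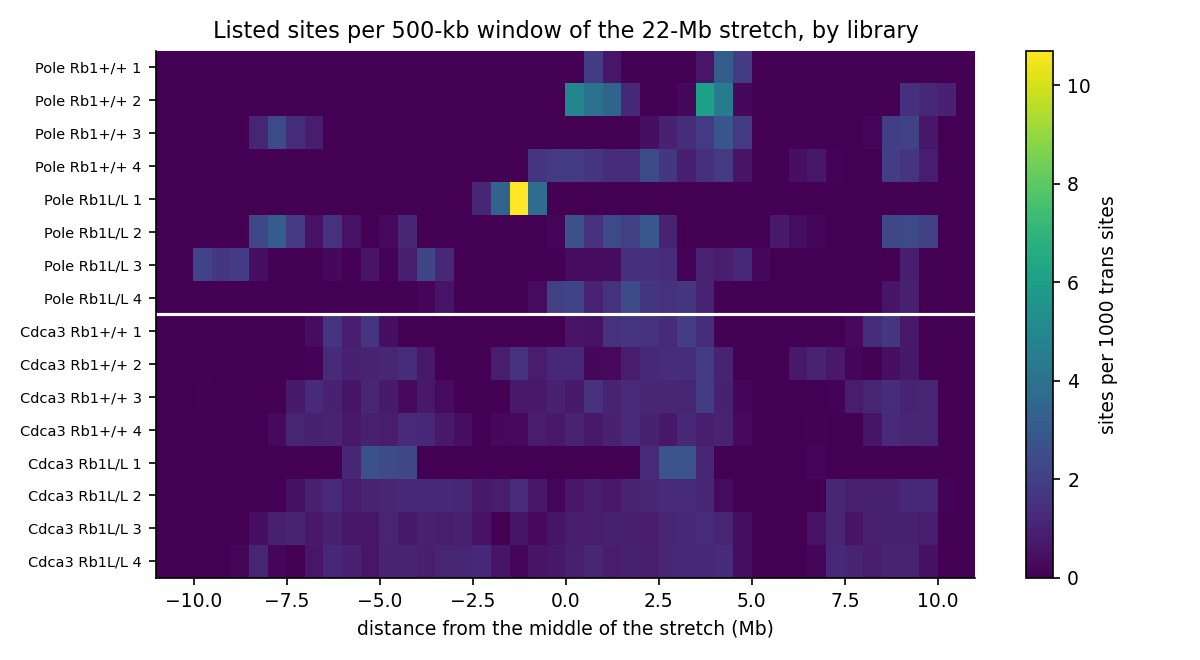
Sites per 1000 trans sites (colour) in each 500-kb window of the 22-Mb stretch, by library in rows, against distance in Mb from its middle. The white line separates Pole libraries above from Cdca3 libraries below. Nearly empty windows 5 to 6.5 Mb right of the middle part the last filled block of the Cdca3 libraries from those before it, while Pole libraries are filled mainly from 0 to 5 Mb and differ from one another.

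Inside, windows with sites in many Cdca3 libraries spread over most of the stretch, and those of Pole lay mainly in 1 block. Pole had fewer such windows on the other chromosomes too. Windows with sites in at least 5 of 8 Cdca3 libraries ran from 56 to 60, 61 to 67.5 and 69.5 to 73 Mb. Both windows from 60 to 61 Mb, between the first of these runs and the next, had sites in 4 of 8 Cdca3 libraries, and in 4 of 8 a single called region of 12.9 to 14.8 Mb ran through both. At Pole such windows ran from 63.0 to 68.0 Mb, with 1 more from 72 to 72.5 Mb. The windows that met this at both viewpoints were those from 63.0 to 67.5 and from 72 to 72.5 Mb. In the stretch 25.0% of windows met it at Pole and 63.6% at Cdca3. On the other chromosomes trans to both, 8.24% and 22.7% did. The wider spread at Cdca3 is thus not particular to the stretch, and the part of list length in it was not tested. The core from 63 to 68 Mb held 11.4 ± 7.02 sites per 1000 trans sites at Pole and 9.55 ± 1.02 at Cdca3 (SD, n = 8), with sites in 7 of 8 and 8 of 8 libraries. It ran from 0 to 24.6 over Pole libraries, the 0 being Rb1L/L replicate 1, and from 7.97 to 11.1 over Cdca3 libraries.

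A gap from 68.0 to 69.5 Mb followed the core at both viewpoints. It held 0.228 ± 0.404 sites per 1000 at Pole, from 3 of 8 libraries (0.0976 without Rb1L/L replicate 2), and 0.0925 ± 0.262 at Cdca3, all from Rb1+/+ replicate 2 with 13 sites. Beyond it the promoters parted again. From 69.5 to 71.5 Mb all 8 Cdca3 libraries listed sites (2.00 ± 1.15 per 1000), and 3 of 8 Pole libraries did (0.134 ± 0.277, or 0.0382 without Rb1+/+ replicate 4). From 71.5 to 73.0 Mb, 6 of 8 Pole libraries (2.62 ± 2.46) and 7 of 8 Cdca3 libraries (2.43 ± 1.26) listed sites.

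Agreement of the viewpoints was weaker within the stretch than along the rest of the chromosome. Over the 247 windows the mean Pole and Cdca3 levels correlated with Pearson r = 0.741 and Spearman rho = 0.849. Much of this comes from windows empty at both: over the 114 windows with a site r was 0.582. Within the 44 windows of the stretch r was 0.437, and over the 203 windows outside it 0.816. Empty windows are more common outside. Over windows with a site r was 0.381 in the stretch (41 windows) and 0.698 outside it (73 windows). Over the 4356 windows of other chromosomes r was 0.78, and by this measure chromosome 9 ranked 14 of 18 chromosomes. These are descriptions over windows, which share the same libraries, restriction-site density and neighbours, and the difference between stretch and rest was not tested.

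**Figure D4:**
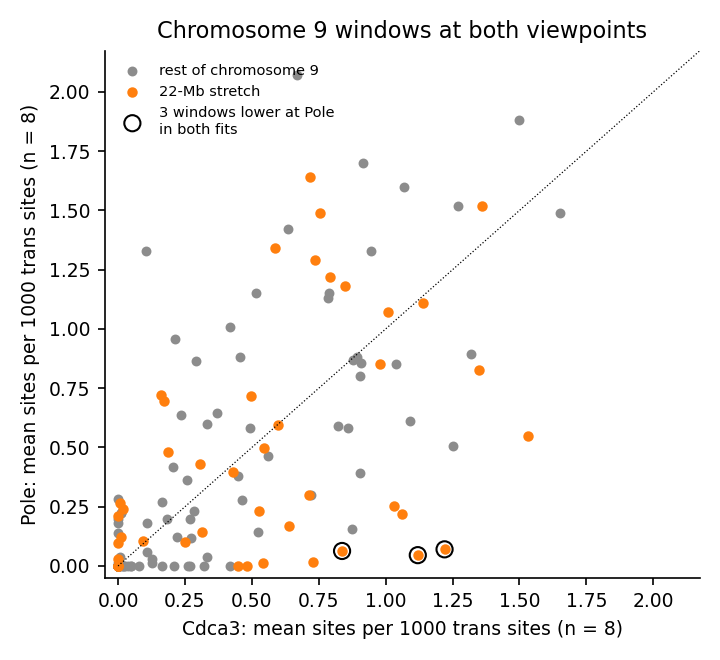
Mean sites per 1000 trans sites of the 8 Pole libraries against those of the 8 Cdca3 libraries for each 500-kb window of chromosome 9. Orange points are the 22-Mb stretch, grey points the rest, the dotted line marks equal levels, and circles mark the windows from 57.0 to 58.5 Mb. The circled windows lie near 0 at Pole and between 0.837 and 1.22 at Cdca3.

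The clearest difference between the promoters was a run of 3 windows from 57.0 to 58.5 Mb, with listed sites in all Cdca3 libraries and few or none in Pole libraries. A called region of Pole Rb1L/L replicate 2, chr9:53892523-59781898, nonetheless spanned all 3. In the window from 57.5 to 58.0 Mb, the Cdca3 Rb1+/+ libraries listed 22, 19, 21 and 20 sites and the Rb1L/L libraries 28, 31, 18 and 13, in order of replicate number. Of the 8 Pole libraries 7 listed 0 there, and Rb1L/L replicate 3 listed 5. The groups therefore do not overlap in this window, although list lengths also do not overlap between viewpoints. The share of other windows that separate the viewpoints in this way is not given here. Levels were 0.0702 ± 0.199 at Pole and 1.22 ± 0.655 sites per 1000 at Cdca3. In the windows on either side the totals were 4 sites in 1 Pole library against 129 in 8 Cdca3 libraries (57.0 to 57.5 Mb), and 3 sites in 2 Pole libraries against 170 in 8 (58.0 to 58.5 Mb). Over the 3 windows together Pole listed 0 sites in 4 of 4 Rb1+/+ libraries and up to 0.76 per 1000 in Rb1L/L libraries, and Cdca3 between 2.40 and 6.26. The windows were picked by the fits described next, so these counts are a description and no separate support.

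Limma was run across all windows trans to both viewpoints, with culture as a block. These 3 windows were lower at Pole in both fits, but the call did not survive the loss of a pair of cultures. Their Pole sites alone fell short of the 8 that a window needed to enter a fit, or 40 in a stricter run. They entered through their Cdca3 sites, the side where they are high, so the calls are no independent evidence of a difference. Both fits use the same counts, so neither is separate support for the other. In the first fit 0.5 was added to the sites of every library. It called 158 of 1791 windows (8.82%), and 12 of the 100 tested on chromosome 9, which is near that background. Of these, 9 were higher at Pole, where 7.82% of all windows were called, and 3 were lower at Pole, where 1.01% were. The added 0.5 weighs more per 1000 sites in the shorter Pole lists, so a window empty in most libraries appears higher at Pole. In a second fit the added number was scaled to each library's trans sites. This fit called 34 windows (1.90%), all lower at Pole, and 3 of 100 on chromosome 9. Its calls thus run in 1 direction only. The log2 differences for 57.0, 57.5 and 58.0 Mb were -4.01 ± 1.02, -4.40 ± 1.03 and -4.16 ± 1.02 (SE; limma adjusted p = 0.0209, 0.0127 and 0.0169), against a median of -0.90 over all windows in that fit. In the first fit they were -2.86 ± 0.93, -3.23 ± 0.90 and -3.06 ± 0.91 (limma adjusted p = 0.0287, 0.00632 and 0.0126), against a median of 0.13.

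The direction of these 3 windows was the same under each alternative run on 500-kb windows, and the significance was not. Other window lengths were run for the count of calls only. With pair 1, 2 or 4 left out, the scaled fit called 0 of the 3 (smallest limma adjusted p = 0.0724, 0.072 and 0.0774), and without pair 3 it called 1. At a value limit of 0.01 the first fit called 1 of the 3, and with quantile normalization it called 2. The scaled fit called 0 within Rb1+/+ cultures (limma adjusted p = 0.138) and 0 within Rb1L/L cultures (0.348). Restricted to windows with at least 40 sites it called all 3, among 9 of 83 on chromosome 9 and 99 of 1259 in all, every one lower at Pole, with a median log2 difference of -1.34 over all windows, whereas the first fit so restricted called 0 (smallest limma adjusted p = 0.0878). The part of list length in the difference was not tested.

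The 9 windows higher at Pole rested on the first fit alone. From 53.0 to 54.5 Mb and from 83.0 to 84.5 Mb, 6 of them drew all their Pole sites from 1 library each. The window from 45.5 to 46.0 Mb drew its Pole sites from 2 libraries. The other two adjoin the top Pole window: 94.5 to 95 Mb, with sites in 4 of 8 Pole and 0 of 8 Cdca3 libraries, and 95 to 95.5 Mb, with sites in 5 of 8 and 2 of 8. Their log2 differences were 2.97 and 3.12 in the first fit (limma adjusted p = 0.00632 and 0.0206) and 1.84 and 2.35 in the scaled fit (limma adjusted p = 0.132 and 0.134). The whole block from 94.5 to 97.5 Mb held 5.31 ± 3.12 sites per 1000 at Pole, with 8 of 8 libraries from 1.37 to 11.9, and 1.62 ± 1.42 at Cdca3, with 7 of 8 libraries from 0 to 3.98. These ranges overlap.

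As a whole, the stretch took a lower mean share of chromosome 9 sites at Pole than at Cdca3, within the spread of cultures. The shares at Pole were 21.5%, 43.2%, 34.2% and 37.7% in Rb1+/+ and 25.9%, 58.2%, 41.9% and 28.9% in Rb1L/L libraries. At Cdca3 they were 36.2%, 41.3%, 40.5% and 46.0% in Rb1+/+ and 41.8%, 45.9%, 44.1% and 47.2% in Rb1L/L libraries. Pole minus Cdca3 was -6.46 percentage points (exact sign-flip permutation p = 0.109, lower at Pole in 6 of 8 cultures; the smallest p possible is 0.00781). Over sites with a value under 0.01 it was -13.4 (exact permutation p = 0.164). With the bounds set at 54 and 72 Mb it was -8.18 (exact permutation p = 0.0391), and without pair 2 it was -11.0 (exact permutation p = 0.0312). The stretch was chosen from called regions of these same libraries. They covered more of it at Cdca3 (median 82.55%) than at Pole (48.0%). The choice can itself favour Cdca3, so these p-values cannot decide whether the viewpoints differ.

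Between genotypes the stretch share did not differ beyond the spread. At Pole it was 34.2% ± 9.22 in Rb1+/+ and 38.7% ± 14.7 in Rb1L/L (SD, n = 4 each), a difference of 4.56 points (95% interval -17.3 to 36.7, exact permutation p = 0.686, higher in Rb1L/L in 3 of 4 pairs). It was -1.94 without Rb1L/L replicate 2. At Cdca3 it was 41.0% ± 4.01 and 44.8% ± 2.35, a difference of 3.76 points (95% interval -4.17 to 11.0, exact permutation p = 0.171, higher in 4 of 4 pairs). Over sites with a value under 0.01 it was 12.1 points and under 0.001 it was 28.6 points (exact permutation p = 0.0571 each). Called regions covered 40.5% ± 15.1 of the stretch in Rb1+/+ and 52.2% ± 28.1 in Rb1L/L at Pole (difference 11.6 points, 95% interval -41.1 to 54.8, exact permutation p = 0.514). At Cdca3 they covered 77.2% ± 13.0 and 73.1% ± 24.4 (difference -4.1 points, 95% interval -49.8 to 29.5, exact permutation p = 0.886), which turned to 8.0 without Rb1L/L replicate 1. The genotype effect on the stretch share differed between viewpoints by 0.803 points (exact permutation p = 0.914), from -2.39 without pair 2 to 4.42.

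No window of chromosome 9 passed the genotype test at either viewpoint. At Pole limma called 0 of 78 chromosome 9 windows and 0 of 1346 windows in all (0.0%; smallest adjusted p = 0.896), with an unadjusted p under 0.05 in 1 and 31 of them. At Cdca3 it called 0 of 92 and 0 of 1732 (0.0%; smallest adjusted p = 0.749), with 3 and 85 under 0.05. The windows were fitted with limma alone. The nearest at Pole was 67.0 to 67.5 Mb, near the far end of the core. Its Rb1+/+ libraries listed 10, 18, 20 and 16 sites and its Rb1L/L libraries 0, 0, 8 and 0. As levels these are 3.05 ± 1.07 and 0.225 ± 0.449 sites per 1000, a log2 difference of -4.12 ± 1.45 (SE, limma adjusted p = 0.896). The groups do not overlap in this window, which is among the 2 lowest in p of those lower in Rb1L/L and did not pass. The share of other windows whose groups do not overlap is not given here, so the separation of this picked window is a description only. At Cdca3 the same window held 0.760 ± 0.507 and 0.676 ± 0.624.

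Other windows named by the same rule also did not pass. At Pole, 110.0 to 110.5 Mb had a log2 difference of -2.88, 119.0 to 119.5 Mb of 2.62 and 121.0 to 121.5 Mb of 2.66 (limma adjusted p = 0.896 each). At Cdca3, 50.5 to 51.0 Mb had no site in the 4 Rb1+/+ libraries and sites in 3 of the 4 Rb1L/L libraries, a log2 difference of 3.88 ± 1.57 (SE). In the window from 60.5 to 61.0 Mb the levels were 0.0142 ± 0.0285 and 0.615 ± 0.499 sites per 1000, a log2 difference of 3.38 ± 1.60. The windows from 110.0 and from 121.5 Mb had -1.30 and -1.37 (limma adjusted p = 0.749 for all 4). The median half-width of the 95% interval over chromosome 9 windows was 2.75 log2 units at Pole and 2.80 at Cdca3, so differences of a few fold in a window were not detectable.

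At Pole, genotype profiles placed the stretch's sites differently at either end of the core, without a window passing the test. The blocks were picked for this pattern and carry no test. The stretch held 5 runs with sites in none of the Pole Rb1+/+ libraries and 1 run with sites in all. Of the 5, only the run described here had sites in all 4 Pole Rb1L/L libraries. The others had sites in 1, 2, 0 and 0 of the 4 Rb1L/L libraries, in order along the chromosome. The share of other runs that separate the genotypes in this way is not given here, so the separation is a description only. From 56.5 to 62 Mb, the 4 Pole Rb1+/+ libraries listed no site, and the Rb1L/L libraries listed 40, 27, 47 and 5. As levels these are 15.3, 3.42, 5.28 and 0.773 per 1000, a mean of 6.19 ± 6.34 (SD, n = 4), or 3.16 ± 2.27 without replicate 1. The sites of replicate 1 lay from 60.5 Mb on, and those of the other 3 below 60 Mb. At Cdca3 this block held 6.72 ± 2.07 in Rb1+/+ and 9.61 ± 1.75 in Rb1L/L, with overlapping ranges of 4.49 to 9.05 and 8.0 to 11.9. From 66.5 to 68.0 Mb, the Pole Rb1+/+ libraries listed 18, 44, 46 and 34 sites (6.71 ± 2.94 per 1000), and the Rb1L/L libraries 0, 0, 28 and 7 (1.06 ± 1.48, or 0.361 without replicate 3). At Cdca3 the levels there were 2.37 ± 0.761 and 2.10 ± 0.929.

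Libraries from Cdca3 were alike in their profiles, while Pole libraries resembled one another no more than they resembled Cdca3 libraries, whatever the genotype. Over the 247 windows, Rb1+/+ and Rb1L/L means correlated with r = 0.425 at Pole and 0.866 at Cdca3, and within the stretch with r = 0.244 and 0.783. Between single libraries, the mean r over 12 pairs of the same genotype was 0.307 at Pole and over 16 pairs of different genotype 0.289. At Cdca3 these were 0.667 and 0.657. Across viewpoints it was 0.412 for the 8 pairs from the same culture, 0.40 for other pairs of the same genotype and 0.398 for pairs of different genotype. A library of the same culture was thus no closer across viewpoints than a library of another by more than the range within these sets, which ran from 0.0451 to 0.701. Pairs share libraries, and no test was made. Pole lists were also shorter, with 2616 to 8899 trans sites against 10537 to 30028 at Cdca3, and the part of list length in these values was not tested.

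About as many single sites were listed in 1 library as in several. Of the 6752 distinct sites, 3568 (52.8%) were listed in 1 library only, and the same 52.8% held inside and outside the stretch. Of the 2343 sites listed for Pole 1429 (61.0%) were also listed for Cdca3, which is 24.5% of the 5838 Cdca3 sites. No site was listed in more than 8 of the 16 libraries. The 4 that were listed in 8 all lay outside the stretch (mm9): chr9:21415151-21415156 in 3 Pole and 5 Cdca3 libraries, chr9:106994875-106994882 in 4 and 4, chr9:107798973-107798980 in 3 and 5, and chr9:108440150-108440156 in 2 and 6. They fall in the block from 20 to 23 Mb and the block from 105.0 to 111.5 Mb, both of which had sites in at least 7 of 8 libraries of each viewpoint. The most often listed sites inside the stretch, at chr9:65468076-65468081 and chr9:65490907-65490913, were listed in 7 libraries and lie in its core. Within the stretch the median gap between listed neighbours was 18.5 to 31.5 kb in Pole libraries and 10.9 to 18.3 kb in Cdca3 libraries.

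Sites that separated the genotypes completely were as rare on chromosome 9 as elsewhere. At Pole, 0 of 2343 chromosome 9 sites were listed in 4 of 4 libraries of one genotype and 0 of 4 of the other, beside 0.00249% of 40228 trans sites in the Rb1+/+ direction and 0.0% in the Rb1L/L direction. At Cdca3, 2 of 5838 were listed in all Rb1+/+ libraries alone, beside 0.0283% of 98941, and 2 in all Rb1L/L libraries alone, beside 0.0475%.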

How the data were processed

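The members and lists were chosen with earlier results of these data known. Each library has a list of HindIII sites with an unheaded value of at most 0.05 that the authors deposited, a p-value or q-value (which of these is not settled), and a list of called regions. The submitters' processing notes name mm9 as the build, while an aligner or a region caller was not given in the sources used here; positions fill the remaining deposited columns. Overlapping intervals were counted as 1 site. Sites per 500-kb window were counted in Python 3.11.15 (pandas 2.3.3). A window entered a fit when its libraries together listed at least 8 sites in it. Tests used limma 3.58.1 under R 4.3.3, with trended eBayes, on log2((sites + 0.5) per 1000 trans sites), with Benjamini-Hochberg adjustment at 0.05. Because the added 0.5 weighs more in short lists, a second viewpoint fit scaled it to each library's trans sites, chosen after the data were seen. Single values were compared by exact two-sided permutation of 4 against 4 libraries (70 assignments, smallest p 0.0286) or sign flips over 8 cultures (256, smallest p 0.00781); 95% intervals invert the first test. Windows named were the 5 highest per viewpoint, the lowest and the edges of the stretch, those past a threshold or else the 2 nearest in each direction, and the 5 longest empty runs. No run outside the stretch had sites in all 16 libraries. Alternatives changed the value limit, denominators, window length, filter, normalization, bounds, block and single libraries.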

Additional observations from a re-analysis of the deposited data

Results flagged for a closer look

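Cdca3 Rb1L/L replicate 1 stood apart from the other 3 libraries of its group in both of the measures picked out. Its chromosome 9 share of trans sites was 4.0%, and its gap to the nearest library was 0.915 of the group's range, above Dixon's 95% limit for 4 samples. Its called regions covered 36.9% of the 22-Mb stretch, with a gap of 0.852 of the range. It was also the Cdca3 library with the fewest trans sites (10537). In all, 12 groups were checked, and chance alone marks about 1 group in 20. The genotype differences with and without this library are given with the results.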

How the results depend on the processing

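No alternative brought a genotype difference in the chromosome 9 share, the stretch share or the called share past its threshold. The chromosome 9 share difference (Rb1L/L minus Rb1+/+) turned at Pole to -0.803 and -3.43 points with values under 0.01 and 0.001, and at Cdca3 to 0.163 with values under 0.01 and 0.127 over all listed sites; under 0.001 it was -0.417 there. Leaving out single libraries moved it from -0.234 to 0.705 at Pole and from -0.326 to 0.466 at Cdca3, the stretch share from -1.94 to 8.83 and from 2.16 to 5.42 (12.1 and 28.6 at Cdca3 with values under 0.01 and 0.001), and the called share from 3.96 to 24.3 and from -10.4 to 8.0. The Pole minus Cdca3 difference in chromosome 9 share turned to -0.0116 with values under 0.01 and -0.157 in Rb1+/+ cultures, was 0.325 in Rb1L/L cultures, and ran from -0.188 to 0.416 without single pairs. For the stretch share it was -13.4 with values under 0.01 and -8.18 with bounds of 54 and 72 Mb, and ran from -11.0 to -3.51 without single pairs. The genotype effect at Pole minus that at Cdca3 ran from -1.01 to 1.14 (chromosome 9 share) and from -2.39 to 4.42 (stretch share). Under values below 0.001 some libraries keep no chromosome 9 site, so a stretch share was not computed wherever that left a group short. The causes were not tested.

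The 12 chromosome 9 windows called between viewpoints became 31 with no filter, 5 with no trend, 4 with quantile normalization, 3 with the scaled addition, and 0 in each genotype alone with either addition. With at least 40 sites they were 0, or 9 with the scaled addition. Without single pairs they ran from 0 to 8. Genotype calls on chromosome 9 were 0 in all 18 alternatives at each viewpoint.

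The main genotype tests did not pair libraries by replicate number. At Pole, deviations of same-numbered libraries correlated from -0.0468 to 0.166, best with their own number in 1 of 4. At Cdca3 they correlated from 0.0394 to 0.154, best with their own number in 3 of 4. Each Cdca3 value was above the mean over other numbers, so a weak pairing was seen there. With the replicate block the differences stayed 0.379 and -0.102 (chromosome 9 share), 4.56 and 3.76 (stretch) and 11.6 and -4.1 points (called), with exact permutation p from 0.125, the smallest possible, to 1.0, and 0 windows were called. Limits: list length stands in for unknown depth, and in a short Pole list a few sites set a window's level.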

Other observations

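The authors' deposited values did not mark the stretch out. In 3 of 8 Pole and 4 of 8 Cdca3 libraries the share of sites with a value under 0.01 was larger inside 52 to 74 Mb than in the rest of chromosome 9. Consecutive listed sites carried the same value in 43.6% to 55.0% of cases per library.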
